A study of Homo sapiens with 18 samples.

Results

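The 38 genes described here encode chemokines and cytokines, the IL1 receptor arm, the subunits and inhibitors of the transcription factor NF-kB, and a few genes known to respond to it. They were chosen by name, as the rows of the deposited count tables whose Ensembl identifier carries 1 of the 38 symbols in the GRCh38 gene annotation, out of 61541 genes in each table. Of these, 37 had a row, and SOD2, whose identifier in the annotation was not among the rows, was not analysed here. The libraries came from A549, a human lung adenocarcinoma cell line of WT genotype that was grown in high glucose medium with serum. Cells were left untreated or kept in 5 mM sodium propionate (SP), the salt of a short-chain fatty acid made by gut bacteria. One experiment held control (24 h), SP 3 h and SP 24 h cells, the other control (3 days), SP 3 days and SP 12 days cells, each with 3 libraries per group and 18 libraries in all. Each SP group was compared with the control of its own experiment, so SP 3 h was set against a control of 24 h and SP 12 days against a control of 3 days, and time in culture and treatment cannot be told apart in these 2 comparisons. The study calls the replicates of the earlier experiment biological. For the later experiment the sources used here do not say whether replicates came from separate cultures, so its p-values measure only the spread between these libraries, which may be technical.

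The number of reads assigned to genes lay between 14187401 and 43765330 for the libraries of 3 and 24 h, and between 15425281 and 21992046 for those of 3 and 12 days. Of the 37 genes, 27 had enough reads to be tested in the first experiment and 28 in the second (the additional one being IL1B), and 9 were tested in neither. The spread between replicates was larger at 3 and 24 h, where the median standard error (SE) of a log2 fold change was 0.20, than at 3 and 12 days, where it was 0.13. The fitted biological coefficient of variation was 0.199 and 0.0996, respectively. In bulk libraries fewer cells that express a gene and less RNA per cell cannot be told apart.

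NF-kB is a family of dimeric transcription factors held in the cytoplasm by inhibitor proteins such as NFKBIA. Receptors for IL1 and TNF, acting through IRAK kinases and ubiquitin enzymes, trigger degradation of the inhibitors, and the freed dimers switch on chemokines, cytokines, adhesion molecules and their own inhibitors, which end the response. A slower non-canonical branch releases dimers of RELB with the product of NFKB2 after receptors such as CD40 are engaged. Lung epithelial and lung cancer cells are known to secrete neutrophil-attracting CXC chemokines under this control.

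The genes spanned a wide range of levels in untreated cells. Per length (RPKM, the normalised CPM divided by exon length in kilobases, mean ± SD of 3 libraries), CXCL5, a neutrophil chemokine, was highest in both experiments, at 80.1 ± 17.2 in the control (24 h) and 143 ± 27.5 in the control (3 days). TNFAIP2, a cytoplasmic protein first found as TNF-inducible, was next with 78.3 ± 19.1 and 110.1 ± 5.29, and in the control (24 h) the levels of these 2 genes lay within each other's SD. IL18 (28.9 ± 4.7 and 24.3 ± 1.75) and LIF (24.5 ± 4.98 and 29.4 ± 1.59) were also among the 5 highest genes in both. At the other end, TNF had no read in any of the 6 control libraries, CSF3 had 1 read in all of them together, and IL6 had 3. The 2 controls were normalised and fitted separately, so no test was run between them, but some genes stood far apart. PTGS2, the inducible cyclooxygenase, was at 7.61 ± 2.05 RPKM in the control (24 h) and 37.3 ± 1.27 in the control (3 days), whereas IL32, a cytokine, was at 3.11 ± 0.62 and 0.175 ± 0.0442. CCL2 showed the same order as IL32 (7.9 ± 3.21 and 1.24 ± 0.158) and ICAM1 the order of PTGS2 (0.117 ± 0.0314 and 0.855 ± 0.0657).

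**Figure D1:**
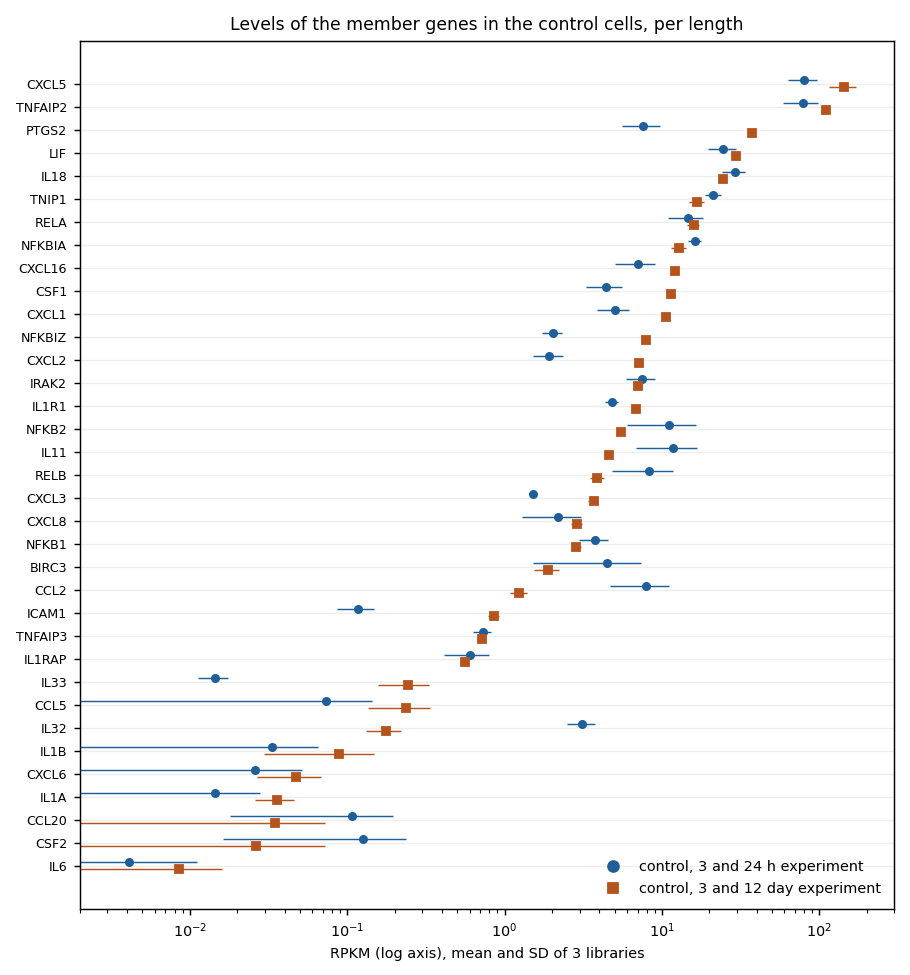
Levels of 35 of the 37 genes in the control cells of the 2 experiments, in RPKM on a log axis, as the mean (point) and SD (line) of 3 libraries. TNF and CSF3 are left out because a control had no read, and lines that leave the panel on the left reach past its lower limit. CXCL5 and TNFAIP2 lie at the top, and IL32, CCL2, PTGS2 and ICAM1 lie far apart between the experiments.

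The stretches before the gene starts that hold the NF-kB binding motif are shown because they group the genes that are followed below. RefSeq promoter windows of GRCh38.p14, from 250 bases before to 50 bases after a start, were found for 30 of the 38 genes. They were searched on both strands for the 10-base NF-kB consensus GGGRNNYYCC (the kB site). R stands for A or G, Y for C or T and N for any base. Of the 30 genes, 15 (50%) held a match, against 13.3% of all 27305 genes with a window. Counted by window, the share was 37.8% of 45 windows, and 11.3% of all 35116. The genes were chosen by name, in part as known to respond to NF-kB, so these shares are a description and not a test. Matches were found for CXCL1, CXCL2, CXCL3, CXCL5, CXCL6, CCL20, IL6, IL32, NFKB1, NFKB2, NFKBIA, NFKBIZ, TNFAIP3, TNIP1 and BIRC3. No match to this pattern was found in the windows of CXCL8, IL11, IL1R1, ICAM1, TNFAIP2 or PTGS2. A site that differs from the pattern in a single base would be missed, so these genes may still hold kB sites. In the stretches below, read 5′ to 3′ along the gene, capitals mark a match, or overlapping matches joined. Further matches of NFKB2 are not shown. TNFAIP3 has another match at chr6:137867204-137867213, and its first bases stand in small letters at the end of the stretch shown.
CXCL1 (chr4:73869304-73869333, plus strand): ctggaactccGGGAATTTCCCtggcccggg
CXCL2 (chr4:74099254-74099283, minus strand): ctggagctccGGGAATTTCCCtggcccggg
CXCL3 (chr4:74038749-74038778, minus strand): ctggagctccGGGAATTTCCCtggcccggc
CXCL5 (chr4:73998749-73998778, minus strand): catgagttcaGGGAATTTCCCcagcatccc
IL32 (chr16:3065294-3065323, plus strand): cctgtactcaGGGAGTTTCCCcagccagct
NFKB1 (chr4:102501300-102501329, plus strand): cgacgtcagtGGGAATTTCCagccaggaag
NFKB2 (chr10:102394461-102394490, plus strand): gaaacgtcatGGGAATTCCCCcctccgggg
NFKBIA (chr14:35404811-35404840, minus strand): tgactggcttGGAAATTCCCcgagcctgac
TNFAIP3 (chr6:137867182-137867211, plus strand): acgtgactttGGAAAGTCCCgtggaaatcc
The 4 chemokines carry the same 11 matched bases, which begin 79, 78, 79 and 91 bases before the start in the order shown. A match is a description of the letters and says nothing about binding in these cells.

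More of the genes passed the test at 3 and 12 days than at 3 and 24 h, and so did more of all genes. A gene is said to be higher or lower at a Benjamini-Hochberg adjusted p under 0.05 in edgeR's quasi-likelihood test, adjusted over all genes tested, and called at an adjusted p under 0.0001 with a fold change of at least 2. At 3 h, 4 of 27 genes were higher and 4 lower, where 7.39% of all tested genes were higher and 4.11% lower. At 24 h the numbers were 5 higher and 4 lower, with 16.8% and 12.0% of all genes. At 3 days 11 of 28 genes were higher and 8 lower, against 25.2% and 23.3% of all genes. At 12 days 14 were higher and 6 lower, against 26.4% and 23.4%. The median log2 fold change of the tested members was 0.0074 at 3 h, −0.044 at 24 h, 0.25 at 3 days and 0.34 at 12 days, and that of all tested genes 0.0034, −0.0099, −0.024 and −0.0037.

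The strict threshold was reached at the later times. At 3 days CXCL8, IL32 and ICAM1 were called higher and CXCL2 lower, 4 of 28 genes where 8.44% of all tested genes were called in either direction. At 12 days CXCL8, IL32, IL11, TNFAIP3, ICAM1 and TNFAIP2 were called higher and IL1R1 lower, 7 of 28 where 9.11% of all genes were called. Neither SP 3 h nor SP 24 h had a called member in edgeR, where 0% and 0.685% of all genes were called, although 15 and 10 of the 27 members had an unadjusted p under 0.05. DESeq2 called LIF (lower) and TNFAIP3 (higher) at 3 h and CCL2 (lower) and ICAM1 (higher) at 24 h. At 12 days it also called BIRC3 higher (1.36, adjusted p = 8.38e-10). The share of all genes that DESeq2 called at this threshold is not given here. With RLE size factors in place of TMM the split was 3 higher and 5 lower at 3 h and 3 higher and 5 lower at 24 h, and with offsets for GC content and length it was 10 higher and 11 lower at 3 days. Of all genes, 1168 were higher and 797 lower, 2817 and 2231, and 4929 and 4324 in these fits. In the fit reported they were 1285 and 714, 2922 and 2087, and 4487 and 4147.

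**Figure D2:**
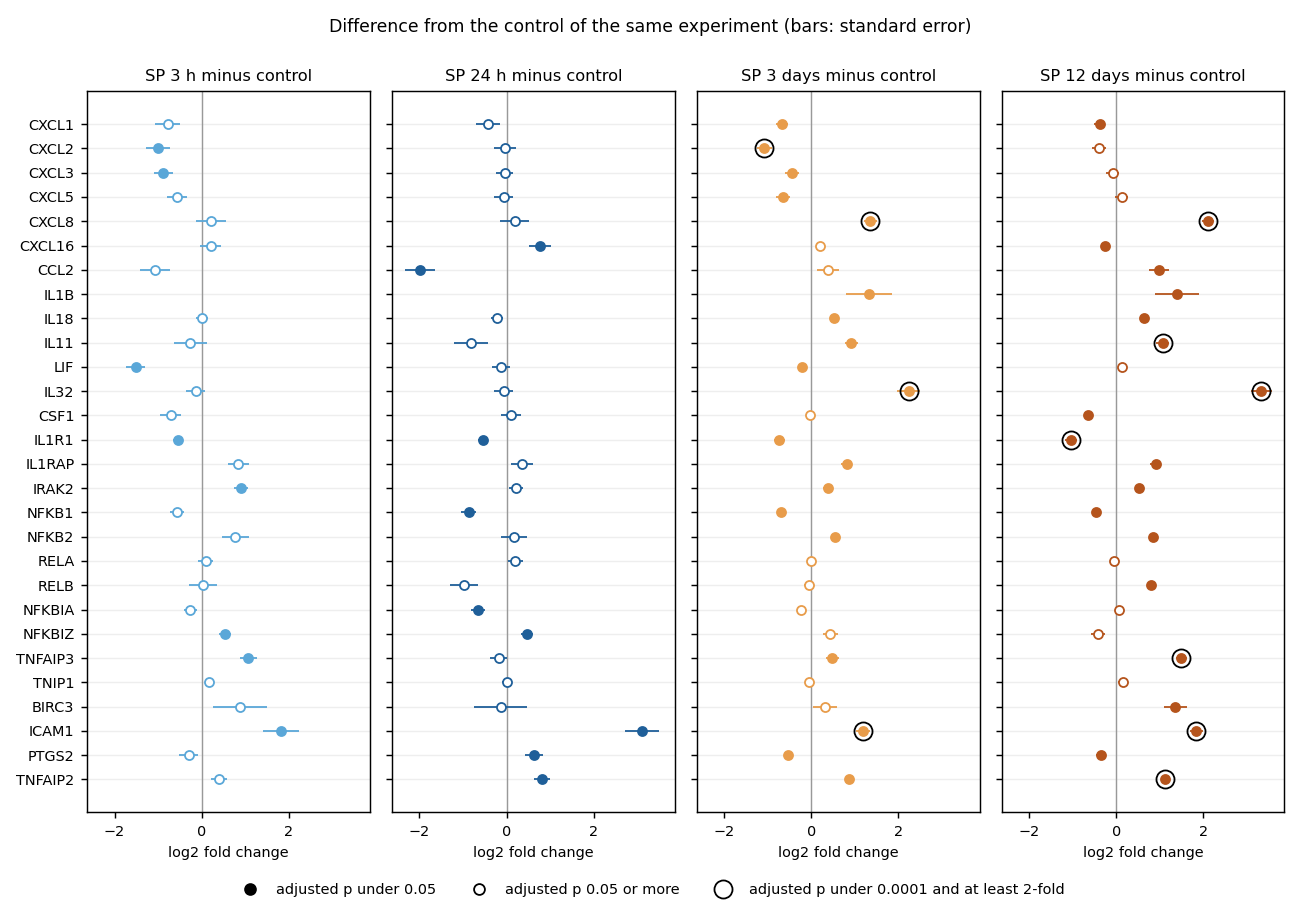
Log2 fold change (SP minus control, point) and SE (line) of the 28 tested genes in the 4 comparisons with control, with filled points for an adjusted p under 0.05 and rings for called genes. IL1B was not tested at 3 and 24 h. IL32 at 12 days, with 3.33, and ICAM1 at 24 h, with 3.11, lie farthest to the right, and CCL2 at 24 h, with −1.99, farthest to the left.

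The neutrophil-attracting chemokines CXCL1, CXCL2, CXCL3 and CXCL5 fell together after 3 days of SP, while CXCL8, which shares a receptor with them, was up-regulated. These genes lie in the same cluster on chromosome 4, from CXCL8 to CXCL2 between positions 73740519 and 74099196. CXCL2 stood at 9.99, 10.2 and 9.87 CPM (read counts scaled to the library total and normalised between libraries) in the control (3 days), at 3.78, 5.48 and 4.91 in SP 3 days and at 8.09, 8.88 and 5.89 in SP 12 days. Every SP library was below every control library. The difference was called at 3 days (log2 fold change −1.08 ± 0.17 (SE), adjusted p = 8.52e-05), and at 12 days it did not pass the threshold (−0.40 ± 0.16, adjusted p = 0.0505). CXCL1 was lower at both times (−0.67 ± 0.13, adjusted p = 0.000492, and −0.38 ± 0.13, adjusted p = 0.0211). CXCL5 fell by 0.65 on the log2 scale at 3 days (adjusted p = 0.00411) and was 0.13 ± 0.15, adjusted p = 0.523, at 12 days. CXCL3 had 8.27, 8.71 and 7.51 CPM in the control (3 days), 5.85, 6.46 and 5.62 in SP 3 days and 7.84, 9.18 and 6.25 in SP 12 days. It was lower at 3 days (−0.45 ± 0.16, adjusted p = 0.0258), and the SP 12 days libraries overlapped the control (−0.08 ± 0.15, adjusted p = 0.699).

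CXCL8, the chemokine IL-8, had 8.08, 7.21 and 7.03 CPM in the control (3 days). It reached 20.6, 20.05 and 16.4 in SP 3 days and 37.4, 33.6 and 25.7 in SP 12 days, with no overlap between the 3 groups. These were 2.55- and 4.3-fold the control (log2 fold change 1.35 ± 0.15, adjusted p = 1.99e-06, and 2.1 ± 0.14, adjusted p = 1.12e-08). In the earlier experiment CXCL8 did not separate from its control, with 8.1, 3.65 and 5.12 CPM in the control (24 h), 7.41, 4.18 and 8.07 in SP 3 h and 7.57, 4.86 and 6.82 in SP 24 h (adjusted p = 0.76 and 0.691). With GC and length offsets and the replicate block together the 24 h value of CXCL8, 0.19 in the fit reported, was 0.89 (adjusted p = 0.0308). CXCL2 and CXCL3 were lower at 3 h. CXCL2 fell from 2.81, 2.06 and 3.23 CPM to 1.69, 0.941 and 1.55 (−1.0 ± 0.28, adjusted p = 0.0478) and CXCL3 from 3.28, 3.49 and 3.26 to 2.26, 1.98 and 1.26 (−0.88 ± 0.22, adjusted p = 0.0288). By 24 h both overlapped the control, CXCL2 at 3.16, 2.22 and 2.67 and CXCL3 at 2.99, 3.18 and 3.55 CPM. CXCL1 and CXCL5 had 3 h values of −0.78 ± 0.29 (adjusted p = 0.124) and −0.57 ± 0.22 (adjusted p = 0.143), which did not pass.

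The early CXCL2 and CXCL3 results were close to the threshold. CXCL2 at 3 h was lost without any library of its experiment except control (24 h) replicate 2 (−0.75 to −1.14, adjusted p 0.0619 to 0.18). CXCL3 at 3 h was lost without control replicates 1 or 2, SP 3 h replicates 2 or 3 or SP 24 h replicates 2 or 3 (adjusted p 0.0505 to 0.0792), and at 3 days without control replicates 1 or 2 or SP 3 days replicates 1 or 3 (0.071 to 0.0844). The CXCL2 call at 3 days was lost, with an adjusted p of 0.000249 to 0.000964 without any library of the 2 groups compared, and of 0.000151 without SP 12 days replicate 1, and with GC and length offsets the value was −0.83 (adjusted p = 0.000946), below 2-fold. These offsets put CXCL3 at 3 days at −0.34 (adjusted p = 0.0851). CXCL1 at 12 days was −0.37 (adjusted p = 0.0554) without control replicate 2 and −0.21 (0.164) with GC and length offsets, and CXCL5 at 12 days was 0.25 (0.0426) with these offsets. Parts of these genes are alike: 13.4% of the 50-base windows of CXCL2, 6.01% of those of CXCL3 and 4.57% of those of CXCL1 occur in another gene of the annotation, all or most of them in another of the 3, and 12.7% of those of CXCL5, mostly in an overlapping gene. How reads that map to several places were counted is not given in the sources used here.

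**Figure D3:**
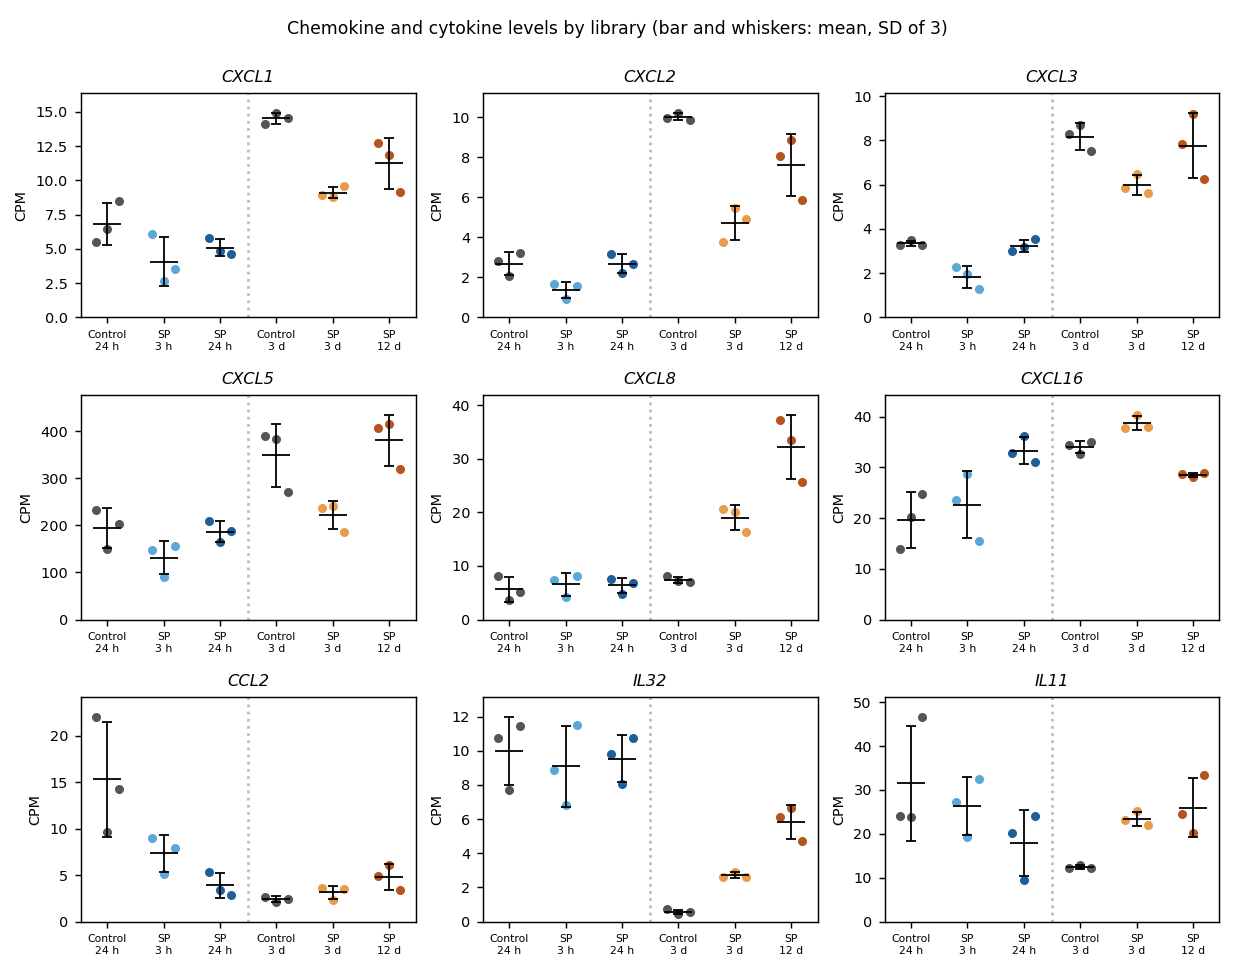
Levels of 9 chemokines and cytokines in each library (points, CPM), with the mean (bar) and SD (whiskers) of the 3 libraries of a group, and a dotted line between the 2 experiments. CXCL1, CXCL2, CXCL3 and CXCL5 drop in SP 3 days, CXCL8 and IL32 climb from control to SP 12 days, and CCL2 lies lower in SP 3 h and SP 24 h than in the control.

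CXCL16, a transmembrane chemokine, and CCL2, the monocyte chemoattractant, showed different directions in the 2 experiments. CXCL16 had 13.8, 20.3 and 24.7 CPM in the control (24 h), 23.6, 28.7 and 15.5 in SP 3 h and 32.8, 36.2 and 31 in SP 24 h, and was higher at 24 h (0.76 ± 0.25, adjusted p = 0.0457). In the later experiment it had 34.4, 32.6 and 34.9 CPM in the control, 37.8, 40.3 and 38 in SP 3 days and 28.6, 28 and 28.8 in SP 12 days, and was lower at 12 days (−0.25 ± 0.08, adjusted p = 0.0174). CCL2 had 22, 9.67 and 14.2 CPM in the control (24 h), 9.03, 5.16 and 7.91 in SP 3 h and 5.34, 3.42 and 2.87 in SP 24 h. Its decrease passed at 24 h (3.96-fold lower, log2 fold change −1.99 ± 0.35 (SE), adjusted p = 0.00327) and not at 3 h (−1.06 ± 0.34, adjusted p = 0.0797), although at 3 h too no SP library reached the control. At 3 and 12 days CCL2 started from a lower level, 2.68, 2.07 and 2.42 CPM, stood at 3.66, 2.32 and 3.47 in SP 3 days and rose to 4.87, 6.09 and 3.37 in SP 12 days (0.98 ± 0.24, adjusted p = 0.0028). The difference between the experiments was not tested. CXCL16 at 24 h was lost with the replicate block (0.76, adjusted p = 0.0696) and without control replicates 1 or 2, SP 3 h replicate 1 or any SP 24 h library (0.54 to 0.81, adjusted p 0.0703 to 0.154), and at 12 days without control replicate 1 (−0.25, 0.0628).

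IL32 showed the largest change of the 28 genes at both later times. It is a cytokine of lymphoid and epithelial cells that induces other inflammatory mediators. IL32 had 0.717, 0.439 and 0.532 CPM in the control (3 days), from 15, 7 and 9 reads, 2.62, 2.93 and 2.63 in SP 3 days and 6.13, 6.64 and 4.74 in SP 12 days. The 3 groups did not overlap, and IL32 was 4.71-fold and 10.03-fold the control (log2 fold change 2.23 ± 0.26, adjusted p = 4.19e-06, and 3.33 ± 0.24, adjusted p = 1.9e-08). In the other experiment the untreated cells already held 10.7, 7.71 and 11.5 CPM, and SP 3 h (8.89, 6.84 and 11.5) and SP 24 h (9.79, 8.08 and 10.8) overlapped them (adjusted p = 0.77 and 0.835). The SP 12 days libraries lay below the untreated cells of the other experiment on the CPM scale, a comparison across separately normalised tables that was not tested.

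Of the IL6 family, IL11, which signals through the shared receptor gp130, was up-regulated and LIF, its relative that keeps stem cells undifferentiated, moved early. IL11 had 12.1, 12.8 and 12.2 CPM in the control (3 days), 23.2, 25.1 and 22 in SP 3 days and 24.5, 20.2 and 33.4 in SP 12 days. It was higher at 3 days (0.92 ± 0.15, adjusted p = 0.000141) and called at 12 days (1.07 ± 0.15, adjusted p = 2.92e-05), with no overlap. In the earlier experiment it lay at 24.1, 23.8 and 46.6 CPM in the control, 27.2, 19.4 and 32.5 in SP 3 h and 20.2, 9.47 and 24.1 in SP 24 h. Its 24 h value of −0.82 ± 0.38 (adjusted p = 0.141) passed with the replicate block (−0.85, adjusted p = 0.0251). LIF dropped from 84.9, 82.4 and 117 CPM to 39.9, 31.6 and 27.9 at 3 h, 2.87-fold lower (log2 fold change −1.52 ± 0.21 (SE), adjusted p = 0.00268), and was back at 98.9, 64.1 and 96.2 at 24 h (−0.13 ± 0.21, adjusted p = 0.645). In the later experiment LIF had 114, 107 and 119.6 CPM in the control, 93.5, 98.2 and 101 in SP 3 days and 130.2, 135 and 111 in SP 12 days, slightly lower at 3 days (−0.22 ± 0.09, adjusted p = 0.0447). The IL11 call at 12 days was lost without any library except SP 12 days replicate 2, by its size (0.83) without SP 12 days replicate 3 and otherwise by its adjusted p (0.000102 to 0.000536). It was lost with only the 2 groups fitted as well (0.000423). With GC and length offsets and the replicate block LIF at 24 h was −0.40 (adjusted p = 0.0347). LIF at 3 days was lost without control replicates 1 or 3 or any SP 3 days library (adjusted p 0.055 to 0.132).

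IL18 and IL1B, pro-inflammatory cytokines that are cut from precursors by the inflammasome, were higher at the later times. IL18 ranged from 58.7 to 67.9 CPM in the control (3 days) and rose to 98.3, 96.5 and 79.98 in SP 3 days and 97.8, 86.8 and 113 in SP 12 days (0.53 ± 0.11, adjusted p = 0.000705, and 0.65 ± 0.11, adjusted p = 0.000115). No SP library overlapped the control. At 3 and 24 h IL18 did not pass (0.01 and −0.22). IL1B was counted with few reads, 3, 3 and 8 in the control, 7, 12 and 14 in SP 3 days and 10, 9 and 22 in SP 12 days, and the groups overlapped. Its values of 1.32 ± 0.52 (adjusted p = 0.0455) and 1.39 ± 0.50 (adjusted p = 0.0311) were lost in DESeq2 (adjusted p = 0.087 and 0.0706), and without control replicates 1 or 2 or SP 12 days replicate 1 at both times. They were also lost without SP 3 days replicates 2 or 3 (at 3 days) or SP 12 days replicate 3 (at 12 days), with adjusted p between 0.0512 and 0.184 over these fits. CSF1, the macrophage growth factor, was lower at 12 days, 34.1, 37.3 and 43.4 CPM against 57.7, 59.8 and 62 (−0.64 ± 0.10, adjusted p = 5.39e-05), and at 3 days was −0.02 ± 0.10 (adjusted p = 0.858). At 3 h CSF1 had −0.71 ± 0.24 (adjusted p = 0.0895). With GC and length offsets it was −0.85 at 3 h (adjusted p = 0.00509) and −0.24 at 3 days (adjusted p = 0.019).

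The 9 genes below the filter were CXCL6, CCL5, CCL20, IL1A, IL33, IL6, CSF2, CSF3 and TNF, for which summed reads are given as ratios with 95% counting intervals, which cover counting error only. IL6, which is also a kB-site gene, had 1, 1 and 0 reads in the control (3 days), 4, 4 and 3 in SP 3 days and 15, 12 and 8 in SP 12 days. Every SP library was above the control, and the ratio was 5.97 (1.30 to 55.5) at 3 days and 16.1 (4.14 to 138) at 12 days. IL33, an epithelial alarmin of the IL1 family, had 19, 16 and 8 reads in the control (3 days), 2, 1 and 2 in SP 3 days and 1, 1 and 10 in SP 12 days, with ratios of 0.126 (0.0390 to 0.318) and 0.257 (0.123 to 0.496). In the 12-day group most IL33 reads came from replicate 3. CXCL6, of the same cluster on chromosome 4, had 1, 2 and 2 reads in the control, 6, 7 and 7 in SP 3 days and 5, 5 and 6 in SP 12 days, ratios of 4.34 (1.58 to 14.8) and 2.95 (1.03 to 10.3). At 24 h CXCL6 had 7, 10 and 8 reads against 2, 1 and 0 (5.58, 1.70 to 28.9). CCL5, the T cell chemokine RANTES, had 18, 17 and 12 summed reads in the control (3 days), SP 3 days and SP 12 days, with intervals that include no difference. IL1A, an alarmin like IL33, had 1, 2 and 10 reads in SP 3 h against 1, 0 and 1 in the control (24 h), a ratio of 6.20 (1.40 to 56.6), most of them in replicate 3. CCL20, a chemokine for T cells and dendritic cells, had 2, 1 and 1 reads in SP 24 h against 6, 3 and 1 (0.268, 0.0614 to 0.929), and CSF2, the growth factor GM-CSF, 0, 0 and 1 against 3, 0 and 4 (0.0957, 0.00212 to 0.745). TNF and CSF3 had no read in any library at 3 and 24 h, and at most 2 summed reads in a group of the later experiment, so a difference was not detectable at this depth. Of the exons of IL6, 428 bp overlap IL6-AS1 on the other strand, and whether counting used strand is not given in the sources used here.

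In the IL1 receptor arm at 3 and 12 days, the signalling receptor was lower and its partners were higher. IL1R1, which binds IL1, had 32.3, 37.9 and 32.4 CPM in the control (24 h), 21.2, 25.5 and 23.5 in SP 3 h and 24.3, 24.8 and 21.6 in SP 24 h. In the later experiment it had 48.2, 51 and 46.9 in the control, 30.7, 28.9 and 28.1 in SP 3 days and 19.9, 20.6 and 30.6 in SP 12 days. It was lower in each comparison with control, with log2 fold changes of −0.54 ± 0.12 (adjusted p = 0.02) at 3 h, −0.54 ± 0.12 (adjusted p = 0.0104) at 24 h, −0.74 ± 0.13 (adjusted p = 0.000303) at 3 days and −1.03 ± 0.13 (adjusted p = 1.28e-05) at 12 days, and no SP library reached a control library of its experiment. IL1RAP, the accessory chain that the receptor needs to signal, was higher at 3 and 12 days (0.81 ± 0.13, adjusted p = 7.71e-05, and 0.91 ± 0.13, adjusted p = 2.27e-05). At 3 h it was 0.84 ± 0.25 (adjusted p = 0.0565), and with GC and length offsets it passed at 3 h (0.88, adjusted p = 0.0068) and 24 h (0.57, adjusted p = 0.0317). IRAK2, a kinase-like adaptor downstream of both chains, was at 25.3, 20.3 and 31.2 CPM in the control (24 h), 51.1, 45.9 and 47.3 in SP 3 h and 29.5, 27.2 and 32.5 in SP 24 h. It was higher at 3 h (0.91 ± 0.16, adjusted p = 0.00609) and overlapped the control at 24 h (0.21 ± 0.16, adjusted p = 0.326). At the later times IRAK2 was higher again, from 22.8, 24.7 and 24.5 to 32.1, 29.98 and 31.3 and 36.8, 37.2 and 29.6 CPM (0.38 ± 0.10, adjusted p = 0.00619, and 0.52 ± 0.10, adjusted p = 0.000471). The IL1R1 call at 12 days was lost without control replicates 2 or 3 (adjusted p = 0.000176 and 0.000154) and, by its size, without SP 12 days replicates 1 or 2 (−0.95 both). It was also lost with GC and length offsets by its size (just below 2-fold, adjusted p = 8.5e-05), and with only the 2 groups fitted (adjusted p = 0.00023). At 3 h IL1R1 was lost without control replicate 2 or SP 3 h replicates 1 or 3 (adjusted p 0.0503 to 0.0803), and at 24 h without SP 24 h replicate 3 (0.052).

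The subunits of NF-kB moved in opposite directions. NFKB1, which encodes p105 and its processed form p50, had 51.9, 51.8 and 73.2 CPM in the control (24 h), 47.5, 36.5 and 35.2 in SP 3 h and 32.7, 32.2 and 32 in SP 24 h. It was lower at 24 h (−0.87 ± 0.17, adjusted p = 0.00438), and at 3 h, where the groups did not overlap either, the value was −0.57 ± 0.16 (adjusted p = 0.0531). It was lower again at 3 and 12 days, 25.2, 29.4 and 28.2 and 32.6, 34.5 and 30.6 CPM against 41.4, 46.5 and 46.6 (−0.70 ± 0.09, adjusted p = 1.66e-05, and −0.46 ± 0.09, adjusted p = 0.000655). NFKB2, the p100 precursor of the non-canonical branch, rose from 29.8 to 32.4 CPM in the control (3 days) to 44.4, 45.3 and 44.1 in SP 3 days and 56.8, 60.1 and 48 in SP 12 days (0.54 ± 0.09, adjusted p = 0.000214, and 0.84 ± 0.09, adjusted p = 2.3e-06). RELB, its partner, was at 11.9, 10.3 and 12.7 CPM in the control and 11.5, 11.4 and 10.6 in SP 3 days (−0.06 ± 0.11, adjusted p = 0.671), then rose to 21.4, 20.7 and 19.2 in SP 12 days (0.81 ± 0.11, adjusted p = 1.51e-05). RELA, the main activating subunit, had 85.1, 79.95 and 95.1 CPM in the control (3 days), with log2 differences of −0.02 ± 0.08 at 3 days and −0.05 ± 0.08 at 12 days (adjusted p = 0.886 and 0.649), and it did not pass at 3 or 24 h. At 24 h RELB had 12.6, 8.95 and 16.6 CPM against 24.5, 14.6 and 35.6 (−0.97 ± 0.33, adjusted p = 0.0509), which passed with the replicate block (−0.93, adjusted p = 0.0139). NFKB2 had 51.2, 40.5 and 95.2 CPM in the control (24 h), 116, 105.5 and 98.5 in SP 3 h and 69.4, 53.3 and 89 in SP 24 h. It passed at neither time, although at 3 h the groups did not overlap (0.77, adjusted p = 0.146). With GC and length offsets and the replicate block NFKB2 passed at 3 h (0.67, adjusted p = 0.00487). With GC and length offsets the NFKB1 value at 24 h was −0.57 (adjusted p = 0.287), NFKB2 at 3 days was 0.20 (0.102), and RELB and RELA at 3 days were −0.46 (0.0019) and −0.16 (0.04).

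Among the inhibitors and feedback genes, TNFAIP3 had the largest fold change at 3 h and 12 days. It encodes A20, an enzyme that removes ubiquitin chains and ends NF-kB signalling. TNFAIP3 had 4.24, 4.44 and 5.4 CPM in the control (24 h), 11.6, 7.91 and 10.3 in SP 3 h and 4.17, 3.54 and 4.83 in SP 24 h. The 3 h value was 2.1-fold the control with no overlap (log2 fold change 1.07 ± 0.19 (SE), adjusted p = 0.00778), and by 24 h no difference passed (−0.18 ± 0.19, adjusted p = 0.516). At the later times it went from 4.88, 4.26 and 4.67 CPM to 6.28, 7.19 and 5.86 in SP 3 days and 14.2, 13.1 and 12 in SP 12 days (0.48 ± 0.14, adjusted p = 0.0111, and 1.5 ± 0.13, adjusted p = 2.13e-07, the latter called). NFKBIA, the inhibitor IkB-alpha, was lower at 24 h, 35.9, 30.6 and 38.1 CPM against 60.04, 49.9 and 54.3 (−0.65 ± 0.15, adjusted p = 0.012). It had 51.2, 36.3 and 49.7 CPM in SP 3 h, and 44, 38.5 and 48.3 in the control (3 days), 37.4, 38 and 36.5 in SP 3 days and 43.9, 49.5 and 43.6 in SP 12 days, and passed at none of these times.

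NFKBIZ, a nuclear cofactor of p50 that is needed for a subset of NF-kB targets, was slightly higher at 3 and 24 h, at 17.1, 18.3 and 16.4 and 14.7, 17.4 and 17.3 CPM against 10.01, 13.2 and 12.7 (0.53 ± 0.14, adjusted p = 0.0394, and 0.46 ± 0.14, adjusted p = 0.0348). It had 48.4, 47.5 and 45.2 CPM in the control (3 days), 65.5, 61.3 and 63.8 in SP 3 days and 33.1, 25.3 and 47 in SP 12 days (0.43 ± 0.17, adjusted p = 0.0521, and −0.42 ± 0.17, adjusted p = 0.0618). TNIP1, an A20-binding inhibitor, did not pass in any of the 4 comparisons, with log2 fold changes between −0.04 and 0.18, and with GC and length offsets it was −0.39 at 24 h (adjusted p = 0.0266). BIRC3, the ubiquitin ligase cIAP2, was higher at 12 days, 38.9, 47 and 22.6 CPM against 13.6, 16.9 and 11.8 (1.36 ± 0.26, adjusted p = 0.00204), and varied widely between replicates of the earlier experiment (11.4 to 55.4 CPM in the control). NFKBIZ at 3 h was lost without any library except control (24 h) replicate 3 (adjusted p 0.0534 to 0.147), and at 24 h without control replicate 1, SP 3 h replicate 1 or SP 24 h replicates 2 or 3 (0.0577 to 0.137). TNFAIP3 at 3 days was lost without SP 3 days replicate 2 (0.39, adjusted p = 0.0666), and NFKBIA at 24 h without SP 24 h replicate 2 (−0.57, 0.0576).

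**Figure D4:**
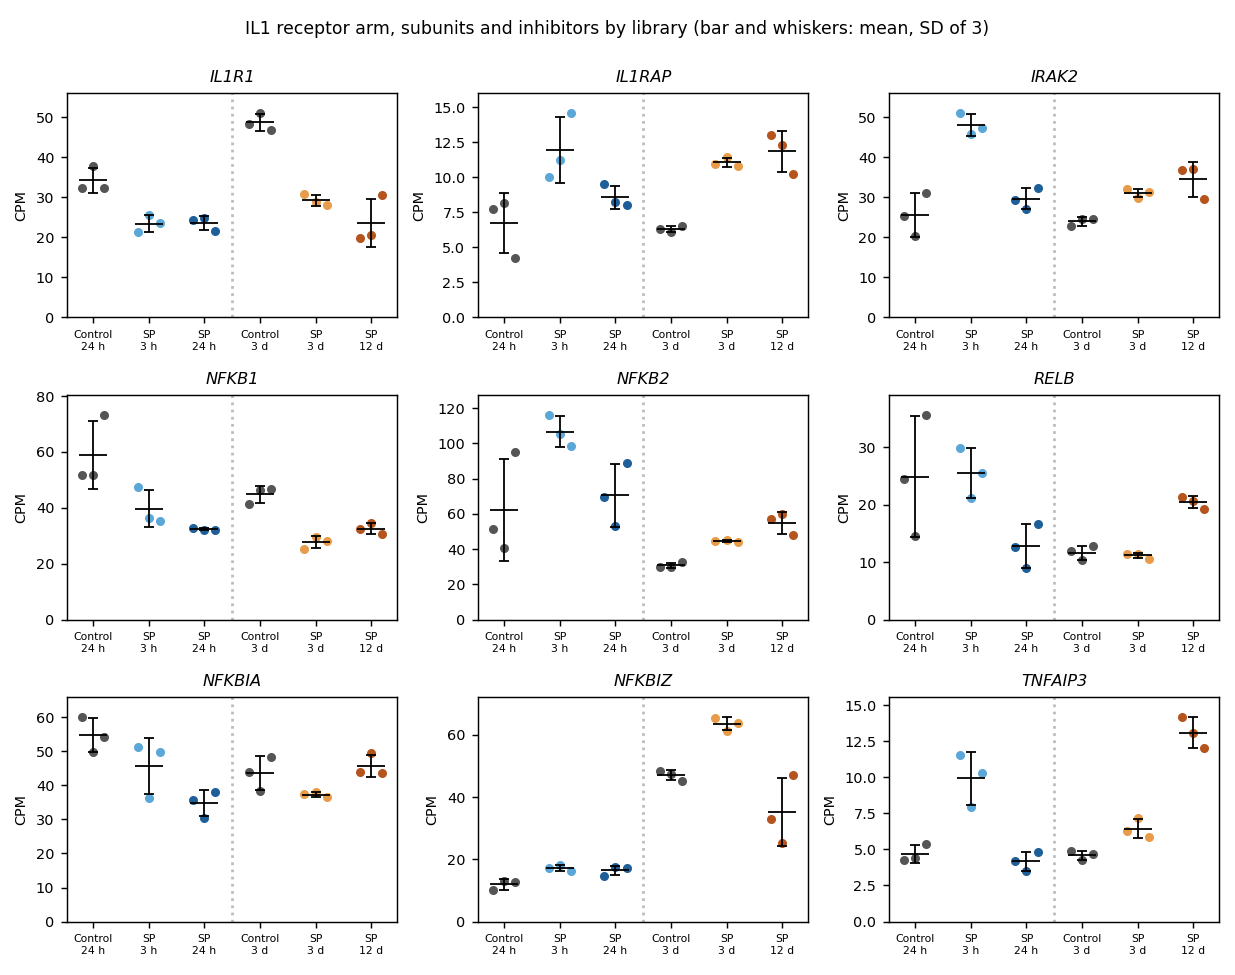
Levels of 9 genes of the IL1 receptor arm, the NF-kB subunits and the inhibitors in each library (points, CPM), with the mean (bar) and SD (whiskers) of 3 libraries and a dotted line between the 2 experiments. IL1R1 and NFKB1 lie lower in SP libraries than in their controls, TNFAIP3 and IRAK2 are highest of the earlier experiment in SP 3 h, and RELB and TNFAIP3 are highest of the later experiment in SP 12 days.

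Of the effectors, ICAM1, the adhesion molecule for leukocytes, was up-regulated in all 4 comparisons. It had 0.318, 0.37 and 0.526 CPM in the control (24 h), from 6, 7 and 15 reads, and 2.47, 0.973 and 1.26 in SP 3 h and 3.36, 3.07 and 4.53 in SP 24 h. No SP library overlapped the control, and the change was 3.54-fold at 3 h (1.82 ± 0.42, adjusted p = 0.0215) and 8.66-fold at 24 h (3.11 ± 0.39, adjusted p = 0.000497). In the later experiment it went from 3.01, 2.69 and 3.13 CPM to 6.22, 7.07 and 6.82 in SP 3 days and 11.3, 8.68 and 11.9 in SP 12 days (1.18 ± 0.17, adjusted p = 2.62e-05, and 1.84 ± 0.16, adjusted p = 1.38e-07), without overlap. ICAM1 shares 876 bp of exon with other genes, 815 bp of them with ICAM4-AS1 on the opposite strand, and 22.7% of its 50-base windows occur in another gene. Without strand, its reads and those of its antisense neighbour cannot be told apart. The 3 h result was lost without control replicates 1 or 2 (adjusted p = 0.0654 and 0.0723), and the call at 3 days without any library of the 2 groups compared (adjusted p 0.000129 to 0.000352).

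TNFAIP2 was the most abundant effector. It had 309, 379.9 and 500.1 CPM in the control (24 h), 543, 578 and 440.4 in SP 3 h and 653, 668 and 774 in SP 24 h, where it was higher (0.82 ± 0.18, adjusted p = 0.00853). It had 555, 531 and 585 CPM in the control (3 days), 1011, 1022 and 986 in SP 3 days and 1224, 1282 and 1130.2 in SP 12 days, 1.81- and 2.18-fold the control (0.85 ± 0.08, adjusted p = 5.25e-07, and 1.12 ± 0.08, adjusted p = 2.45e-08). The 12-day change was called, and with GC and length offsets it was 0.92, below 2-fold. PTGS2 moved in opposite directions in the 2 experiments. It was higher at 24 h, 71.1, 70.8 and 51.8 CPM against 45.4, 50.7 and 29.1 (0.63 ± 0.21, adjusted p = 0.0497), with 33.2, 38.4 and 29.9 in SP 3 h. In the later experiment it fell from 203, 212 and 199 CPM to 145, 147 and 134 in SP 3 days and 151, 139.7 and 189 in SP 12 days (−0.53 ± 0.10, adjusted p = 0.000391, and −0.35 ± 0.10, adjusted p = 0.0074). The 24 h result of PTGS2 was lost without any library of its experiment except control replicate 2 and SP 24 h replicate 3 (0.42 to 0.68, adjusted p 0.0549 to 0.157), and the difference between experiments was not tested.

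**Figure D5:**
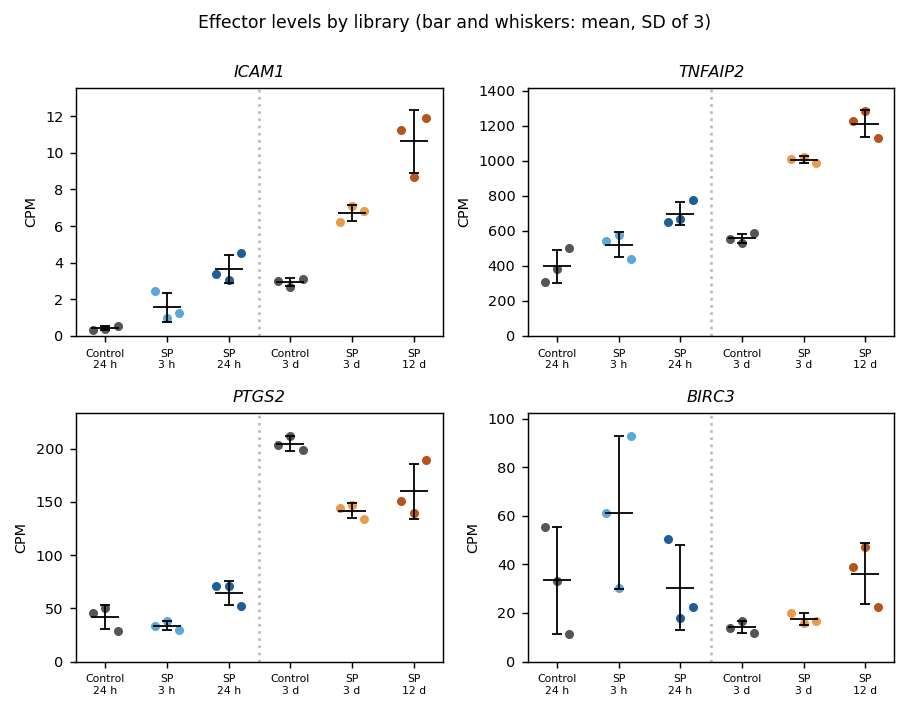
Levels of ICAM1, TNFAIP2, PTGS2 and BIRC3 in each library (points, CPM), with the mean (bar) and SD (whiskers) of 3 libraries and a dotted line between the 2 experiments. ICAM1 and TNFAIP2 lie above their control in SP 24 h and at both later times, PTGS2 lies above it in SP 24 h and below it at both later times, and BIRC3 is spread widely at 3 and 24 h.

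The genes with a kB match did not share 1 direction. At 3 days 12 of the 15 were tested, of which CXCL1, CXCL2, CXCL3, CXCL5 and NFKB1 were lower, IL32, NFKB2 and TNFAIP3 were higher, and NFKBIA, NFKBIZ, TNIP1 and BIRC3 did not pass. At 12 days CXCL1 and NFKB1 were lower, and IL32, NFKB2, TNFAIP3 and BIRC3 were higher. The remaining tested genes with a match, CXCL2, CXCL3, CXCL5, NFKBIA, NFKBIZ and TNIP1, did not pass there. For comparison, 48.6% of all tested genes passed in SP 3 days, counting either direction, and 49.8% in SP 12 days. Whether genes with a match passed more often than other genes was not tested.

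The SP times of an experiment were also compared with each other. They may differ in time in culture too, and the libraries held no control of 3 h or 12 days. Length of treatment and time in culture therefore cannot be told apart here. From 3 to 24 h, 6 of 27 genes were higher (11.7% of all genes) and 2 lower (8.40%), and with GC and length offsets 7 were higher and 6 lower. Of all genes, these offsets gave 2334 higher and 2119 lower, against 2038 and 1459 in the fit reported. LIF (1.38 ± 0.21, adjusted p = 0.00273), CXCL2 (0.97 ± 0.27, adjusted p = 0.0351), CXCL3 (0.84 ± 0.21, adjusted p = 0.0234), CSF1 (0.81 ± 0.24, adjusted p = 0.039), ICAM1 (1.29 ± 0.33, adjusted p = 0.0232) and PTGS2 (0.93 ± 0.21, adjusted p = 0.0151) were the genes that were higher at 24 h than at 3 h. TNFAIP3 (−1.24 ± 0.19, adjusted p = 0.0028) and IRAK2 (−0.70 ± 0.16, adjusted p = 0.014) were the genes that were lower. RELB had −1.0 ± 0.33, adjusted p = 0.0593, with all SP 24 h libraries below those of SP 3 h.

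From 3 to 12 days of SP, 9 of 28 genes were higher (4.46% of all genes) and 3 lower (3.65%). IL32 (1.09 ± 0.19, adjusted p = 0.00248), BIRC3 (1.04 ± 0.26, adjusted p = 0.0404), TNFAIP3 (1.02 ± 0.13, adjusted p = 0.000235) and RELB (0.87 ± 0.11, adjusted p = 0.000188) rose most, and CXCL5 (0.78), CXCL8 (0.76), CXCL2 (0.68), ICAM1 (0.66) and LIF (0.36) rose by less than 2-fold. NFKBIZ (−0.85 ± 0.17, adjusted p = 0.0114), CSF1 (−0.62 ± 0.10, adjusted p = 0.00123) and CXCL16 (−0.44 ± 0.08, adjusted p = 0.00385) fell. Leaving out SP 12 days replicate 3 raised the number of higher genes from 9 to 18, and leaving out SP 3 days replicates 1 or 3 or SP 12 days replicates 1 or 2 lowered it to 4 or 5. SP 12 days replicate 3 differed more from replicates 1 and 2 than these did from each other. From 3 to 24 h the 6 higher genes became 3 without SP 3 h replicate 2 or SP 24 h replicate 1, 2 without SP 24 h replicates 2 or 3, and 1 without SP 3 h replicate 3. The numbers of all genes in these fits are not given here, so the changes cannot be read as particular to the members.

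A list of 77 further genes of the pathway, made of receptors, adaptors and kinases, other subunits and inhibitors, and other targets, was examined next to the members, and 62 of them were tested in each experiment. At 3 h 5 were higher and 1 lower, at 24 h 8 and 10, at 3 days 13 and 15, and at 12 days 17 and 13. In either direction these were 9.68%, 29%, 45.2% and 48.4% of the 62. That was near the 11.5%, 28.8%, 48.6% and 49.8% of all genes that passed. Of 26 adaptors, kinases and ubiquitin enzymes, 1 was higher and 1 lower at 3 h (median log2 fold change 0.0030). At 24 h 0 were higher and 5 lower (median −0.26), at 3 days 2 and 9 (median −0.18) and at 12 days 4 and 6 (median 0.0080). Of all genes, 7.39%, 16.8%, 25.2% and 26.4% were higher at these times, and 4.11%, 12.0%, 23.3% and 23.4% were lower. Among the receptors, TNFRSF1B, the second receptor of TNF, had 0.371, 0.317 and 0.806 CPM in the control (24 h), 1.06, 1.56 and 0.897 in SP 3 h and 7.0, 7.81 and 6.48 in SP 24 h. It had 2, 1 and 7 reads in the control (3 days), 79, 87 and 73 in SP 3 days and 36, 47 and 85 in SP 12 days. It was called at 24 h, 3 days and 12 days (log2 fold change 3.74 ± 0.32, adjusted p = 9.4e-05, 4.64 ± 0.40, adjusted p = 1.4e-07, and 3.88 ± 0.42, adjusted p = 1.63e-06). CD40, which opens the non-canonical branch, was called at 3 and 12 days, 16, 15 and 17.6 and 14.9, 12.9 and 17.2 CPM against 5.5, 6.14 and 6.56 (1.42 ± 0.14, adjusted p = 4.72e-07, and 1.31 ± 0.14, adjusted p = 9.88e-07). LIFR, the receptor of LIF, was called at both times too, 34.6, 30.1 and 31.6 and 44.8, 39.97 and 40.6 CPM against 13.6, 15.1 and 10.9 (1.28 ± 0.12, adjusted p = 2.6e-07, and 1.66 ± 0.12, adjusted p = 1.2e-08).

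The libraries were checked for cell markers. Keratins 8 and 18 were abundant in all groups, with means of 2146 to 7714 CPM, as for an epithelial line. These 2, KRT19, EPCAM and CDH1 were higher with SP at 24 h, 3 days and 12 days. The other genes of this list of 8 differed. ALDH1A1 (−0.56, −0.85 and −0.94) and AKR1B10 (−0.997, −1.05 and −1.06) were lower at these times, and KRT7 passed only at 12 days (0.44, adjusted p = 0.0169). Of 7 leukocyte markers, CD3E had no read in any library, PTPRC had none at 3 and 24 h, and CD14 was higher at 24 h (2.22, adjusted p = 0.000163) and at 3 days (1.08, 0.00119). The summed level of the 7 was 6.04 to 9.12 CPM in the control (24 h), 6.77 to 8.96 in SP 3 h and 19.7 to 22.5 in SP 24 h, then 19.6 to 21.4 in the control (3 days), 37.1 to 40.9 in SP 3 days and 15.8 to 30.1 in SP 12 days. Of 4 fibroblast markers, COL1A1 was higher at 24 h, 3 days and 12 days and LUM at 3 and 12 days, with a summed level in the same order of 6.62 to 22.1, 18.7 to 38.7, 62.2 to 89.8, 15.1 to 16.02, 62.8 to 73.2 and 35.7 to 64.1 CPM, while DCN had no read in the control (3 days) or at 3 and 24 h. The part of these levels in the results above was not tested.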

How the data were processed

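RNA-seq read counts per gene of 18 A549 libraries, in 2 tables of 9, were analysed as the authors deposited them. Per the labels and the study's methods, paired-end reads were checked with FastQC, aligned to GRCh38 with STAR 2.7.9a and counted per gene with featureCounts, and R 4.2.1 and DESeq2 1.36.0 were used downstream. Strand and multimapper settings are not given in the sources used here. Groups were taken from the sample labels. Each table was fitted alone with its 9 libraries in edgeR 4.0.16 (R 4.3.3, limma 3.58.1) with TMM factors, genes kept by filterByExpr at a minimum count of 10, a robust quasi-likelihood fit and Benjamini-Hochberg adjustment over all 17377 (3 and 24 h) or 17775 (3 and 12 days) genes tested. CPM are TMM-normalised, and RPKM divide them by the merged exon length of GENCODE v44, which named the Ensembl identifiers. Higher, lower and passed mean an adjusted p under 0.05, and called an adjusted p under 0.0001 with at least a 2-fold change.

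The members and lists were chosen with earlier results of these data known. Library values are given at least for genes called in any comparison and for genes with an adjusted p under 0.05 at 3 or 24 h and a mean of at least 20 reads in a group. Other pathway genes are named where called in 2 comparisons with control. SOD2 was not analysed here. Replicates with the same number were compared by the correlation of their deviations from the group means. Between control (24 h) and SP 24 h these were 0.499, 0.17 and 0.504 for replicates 1, 2 and 3, so the numbers were taken to pair these libraries and the blocked value is given where it changed a result, whereas in the other comparisons with control at least 1 correlation was 0.1 or less. The pairing is uncertain. Control replicate 3 and SP 24 h replicate 2 reached 0.175. Control replicates 1 and 3 reached 0.576 and 0.519 with SP 3 h replicates 3 and 2. No 2 replicates of a group were alike within sampling noise. The fit was tested on simulated data. Alternatives were RLE size factors, no filter, a replicate block, offsets for GC content and length, the 2 groups alone, DESeq2 1.42.0 and each library left out. A block in a fit of control (24 h) and SP 24 h alone was chosen after seeing the data. Intervals of read ratios cover counting error only.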

Additional observations from a re-analysis of the deposited data

Results flagged for a closer look

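Of the genes tested, 5 differed between the 2 SP times of an experiment by at least 2-fold in edgeR's quasi-likelihood test, TNFAIP3 at both. Length of treatment and time in culture cannot be told apart in these comparisons. From 3 to 24 h, LIF was higher by 1.38 on the log2 scale (adjusted p = 0.00273), ICAM1 was higher by 1.29 (adjusted p = 0.0232) and TNFAIP3 was lower, with −1.24 (adjusted p = 0.0028). In each of these 3 genes the libraries of SP 3 h and SP 24 h did not overlap. The ICAM1 difference was lost without SP 3 h replicates 2 or 3 or SP 24 h replicate 3 (adjusted p 0.0705 to 0.0886), whereas those of LIF and TNFAIP3 kept an adjusted p under 0.05 in every alternative run.

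From 3 to 12 days, IL32 was higher by 1.09 (adjusted p = 0.00248), TNFAIP3 by 1.02 (adjusted p = 0.000235) and BIRC3 by 1.04 (adjusted p = 0.0404). The libraries of the 2 times did not overlap in these genes either. The BIRC3 difference was lost when the 2 groups were fitted alone (1.04, adjusted p = 0.0704) and without any library except SP 12 days replicate 3 (adjusted p 0.0519 to 0.153), and those of IL32 and TNFAIP3 were kept in every alternative run. TNFAIP3 was thus lower at the later time in the first experiment and higher in the second, and the difference between experiments was not tested.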

How the results depend on the processing

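No result past the threshold changed direction in an alternative, and TNIP1 at 24 h, at 0.0040 in the fit reported, was −0.39 (adjusted p = 0.0266) with GC and length offsets. With only the 2 groups fitted, 2 genes were higher and 1 lower at 3 h, 3 higher at 24 h, and 5 lower from 3 to 24 h. RLE size factors gave 3 higher at 24 h. Without the filter 7 genes were lower at 3 h, and 1 was called at 3 h and 1 at 24 h. DESeq2 gave 7 lower at 3 h and 4 lower from 3 to 24 h, called 2 genes at 3 h and 2 at 24 h, and passed 12 of the other pathway genes at 3 h. GC and length offsets gave 6 lower from 3 to 24 h and 14 other pathway genes at 3 h. With the replicate block 5 genes were lower from 3 to 24 h. GC and length offsets with the replicate block gave 7 lower at 24 h, 8 lower from 3 to 24 h, 1 called gene at 24 h, 2 at 3 days and 4 at 12 days, and 16 and 30 other pathway genes at 3 and 24 h. Of all genes, 1285 were higher and 714 lower at 3 h in the fit reported. These were 624 and 349 with the 2 groups alone, and 669 and 1127 were lower without the filter and with DESeq2. At 24 h 2922 were higher, and 2539 with the 2 groups alone and 2817 with RLE size factors. From 3 to 24 h 1459 were lower, and 2011 with the 2 groups alone, 1810 with DESeq2, 2119 with the offsets, 1513 with the block and 2484 with both. The cause of these changes was not tested. Beyond the values given in the report, the replicate block, where the numbers did not pair the samples, lost CXCL3 at 3 h (adjusted p = 0.0518), LIF at 3 days (0.0562) and CSF1 from 3 to 24 h (0.0771). It gained CXCL5 and CCL2 at 3 h (0.0293 and 0.0221) and from 3 to 24 h (0.0262 and 0.0231), RELB and NFKBIA from 3 to 24 h (0.0139 and 0.0431), NFKBIZ at 3 and 12 days (0.0445 and 0.0412) and CXCL2 at 12 days (0.0402), and lost the calls of CXCL2 at 3 days (0.000165) and IL11 at 12 days (0.000186). Leaving out 1 library at a time gave 2 to 6 higher and 1 to 4 lower genes at 3 h, 2 to 5 and 3 to 5 at 24 h, 9 to 14 and 6 to 10 at 3 days, and 13 to 15 and 5 to 8 at 12 days. It gave 1 to 7 higher and 1 to 4 lower genes from 3 to 24 h, 4 to 18 and 2 to 4 from 3 to 12 days, 0 called genes at 3 and 24 h, 2 to 5 at 3 days and 5 to 9 at 12 days, and 6 to 9, 12 to 24, 23 to 35 and 24 to 39 other pathway genes at the 4 times. The numbers of all genes in the fits without 1 library are not given here. The calls of CXCL8 and IL32 at 3 and 12 days and of TNFAIP3 and ICAM1 at 12 days were kept in every alternative run. Read number limits the 9 untested genes.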
